A study of Mus musculus with 96 samples.

Results

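The 10 genes described here make enzymes and transporters of antioxidant defence and the 2 widely expressed metallothioneins: Hmox1, Nqo1, Gclc, Gclm, Srxn1, Txnrd1, Slc7a11, Osgin1, Mt1 and Mt2. They were taken by symbol from a list, not by their values, out of 19505 genes with a named probe set on Clariom S Mouse arrays, which read whole transcripts as a log2 signal. Each of the 10 had 1 probe set, and all 10 were tested. Mice had 90 min of middle cerebral artery occlusion (MCAO) with an intraluminal filament, or sham surgery, and brains were collected 2 h after the onset, which is 30 min into reperfusion. Every animal contributed an array of the ipsilateral hemisphere (IP, the side of the filament) and an array of the contralateral hemisphere (CL), from perfused brain. By the study's methods the tissue was not the whole hemisphere. It was that side of the brain slice at bregma, taken to represent the infarct core. The groups were diabetic mice (BKS-Leprdb/db/JOrlRj males aged 8 to 12 weeks, 8 MCAO and 4 sham), old mice (C57Bl/6j males aged 18 months, 8 MCAO and 4 sham) and males (C57Bl/6j aged 8 to 12 weeks, 7 MCAO and 3 sham of the 8 and 4 labelled). The diabetic mice lack a working leptin receptor on another strain background, so diabetes and strain cannot be told apart, and filaments of another type were used for each of these groups. Males belonged to an earlier set of experiments, so that set and group cannot be told apart where males are compared with the others.

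Most of these genes are textbook targets of Nrf2 (encoded by Nfe2l2), a transcription factor that Keap1 keeps low in resting cells. Oxidants and electrophiles stop that loss, and Nrf2 then pairs with a small Maf protein on antioxidant response elements. Mt1 and Mt2 are small cysteine-rich proteins that bind zinc and copper, their genes answer to zinc through Mtf1 and to glucocorticoids, and in the brain astrocytes are a main source. The question was whether this defence had moved in the ischemic hemisphere at this early time, and whether diabetes or age altered it.

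Some facts of the series bear on all values. Both arrays of 1 MCAO and 1 sham male were poor (correlation with the other arrays 0.365 to 0.597, against 0.984 to 0.989 in the male arrays used) and were left out. The study's account of its quality control describes the males removed as ischemic animals only, with all sham males kept. The labels of these arrays do not match that, so the surgery labels of the males carry that doubt. For the diabetic and old mice, 8800 probe sets carried signals displaced downward by 3 rows, which were put back, and Txnrd1 was the only one of the 10 among them. The 5 genes used to check the ischemic response (Fos, Npas4, Ccn1, Hspa1a and Ptgs2) were all higher in IP after MCAO in the fit of the 3 groups together, by 1.39 to 2.91 on the log2 scale. Old MCAO mouse 8 was mixed in that check, with IP minus CL of -2.67 for Ccn1, -3.10 for Hspa1a and -0.20 for Fos but 0.32 for Npas4 and 0.89 for Ptgs2, and values without it are given where they matter. Diabetic MCAO mouse 5 and male MCAO mouse 6 responded weakly. Their means over the 5 genes were 0.32 and 0.57, with Npas4 at -0.43 and -0.08, and both were kept in the main fits. The diabetic, old and male arrays were normalized apart, so levels were not compared between these groups. Diabetic arrays used had correlations of 0.976 to 0.988 and old arrays 0.984 to 0.988. In bulk tissue, fewer cells of a type and less RNA per cell cannot be told apart.

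The 10 genes differed little between the hemispheres after MCAO. In the fit of 23 MCAO mice, which gave each group equal weight, 1 of 10 passed an adjusted p of 0.05, against 3.49% of all genes. That gene was Srxn1, which was lower in IP. The 10 differences ran from -0.17 to 0.12 with a median of -0.02, and their 95% intervals together covered 0.836-fold to 1.25-fold. Over all 19505 genes the 5th and 95th percentiles were -0.17 and 0.18. At the looser threshold of the study's methods, an adjusted p of 0.25, 3 of 10 passed (Srxn1 and Mt2 lower, Txnrd1 higher), against 14.3% of all genes.

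**Figure D1:**
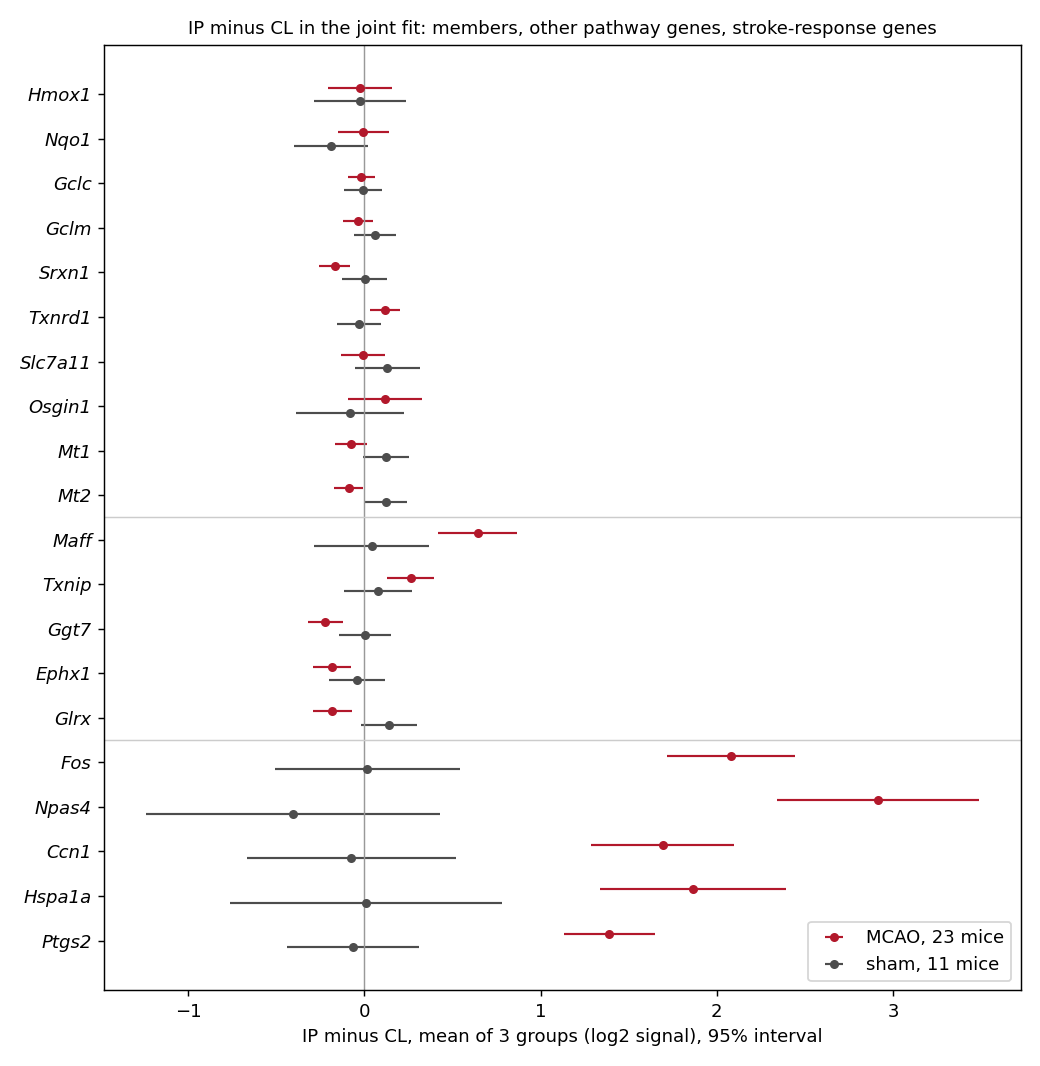
IP minus CL as log2 signal (x axis) in the fit of 3 groups, with 95% intervals, after MCAO (red, 23 mice) and after sham surgery (grey, 11 mice), for the 10 genes (top), the 5 other pathway genes that passed the threshold (middle) and the 5 response genes (bottom). The 10 genes lie between -0.17 and 0.12 after MCAO while the response genes lie between 1.39 and 2.91.

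Within single groups none of the 10 passed. After MCAO the count was 0 of 10 in diabetic mice, against 2.29% of all genes, 0 of 10 in old mice, against 0%, and 0 of 10 in males, against 0.159%. At an unadjusted p under 0.05 by limma, the counts were 2 of 10 in diabetic mice, 1 of 10 in old mice and 2 of 10 in males. Of all 19505 genes, 4099 in diabetic mice, 1386 in old mice and 1396 in males were under it. At an adjusted p of 0.25 the count was 2 of 10 in diabetic mice (Gclm and Srxn1, both lower), against 22.2% of all genes, 0 of 10 in old mice, against 0.041%, and 0 of 10 in males, against 0.472%. The members' median difference was 0.03 in diabetic mice, -0.04 in old mice and -0.02 in males. Markers of other cell types moved in the diabetic mice. Of the neutrophil markers 3 of 4 measured (of 5 listed) were higher in IP after MCAO, with a list median of 1.27, and 2 of 6 neuron markers were lower. The summed linear signal of the neutrophil list was 80.5 to 252 in IP and 74.5 to 121 in CL after MCAO, and 62.4 to 130 in IP and 63.6 to 86.8 in CL after sham surgery. That of the endothelium list (1 of 5 higher) was 1628 to 2102 in IP and 1215 to 1705 in CL after MCAO, and 1394 to 1535 in IP and 1302 to 1456 in CL after sham surgery. That of the red blood cell list (0 of 2 measured called) was 166 to 313 in IP and 135 to 190 in CL after MCAO, and 130 to 170 in IP and 121 to 211 in CL after sham surgery. The part of these cells in the diabetic values was not tested.

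After sham surgery 0 of 10 differed between hemispheres in diabetic mice, in old mice, in males or in the 11 mice together, against 0% of all genes in each of these comparisons. The difference of MCAO and sham mice in IP minus CL gave 0 of 10 in the 3 groups together, against 0.169% of all genes, and 0 of 10 in each group alone, against 0%. Between animals, IP after MCAO compared with IP after sham surgery gave 0 of 10 in diabetic mice (0.272% of all genes), 0 of 10 in old mice (0.0718%) and 0 of 10 in males (0.205%). The same comparison of CL gave 0 of 10 in each group (0% of all genes). At an unadjusted p under 0.05 by limma, 1 of 10 passed after sham surgery in the 3 groups together, against 846 of all 19505 genes. For MCAO minus sham in the 3 groups it was 3 of 10, against 1789 of all genes. The comparisons of single groups in this paragraph had 0 to 3 of 10, against 612 to 2653 of all genes. With 3 or 4 sham mice the standard errors of MCAO minus sham ran from 0.0946 to 0.375 in the single groups, and the 95% intervals of the 10 genes reached from -0.78 to 1.08.

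**Figure D2:**
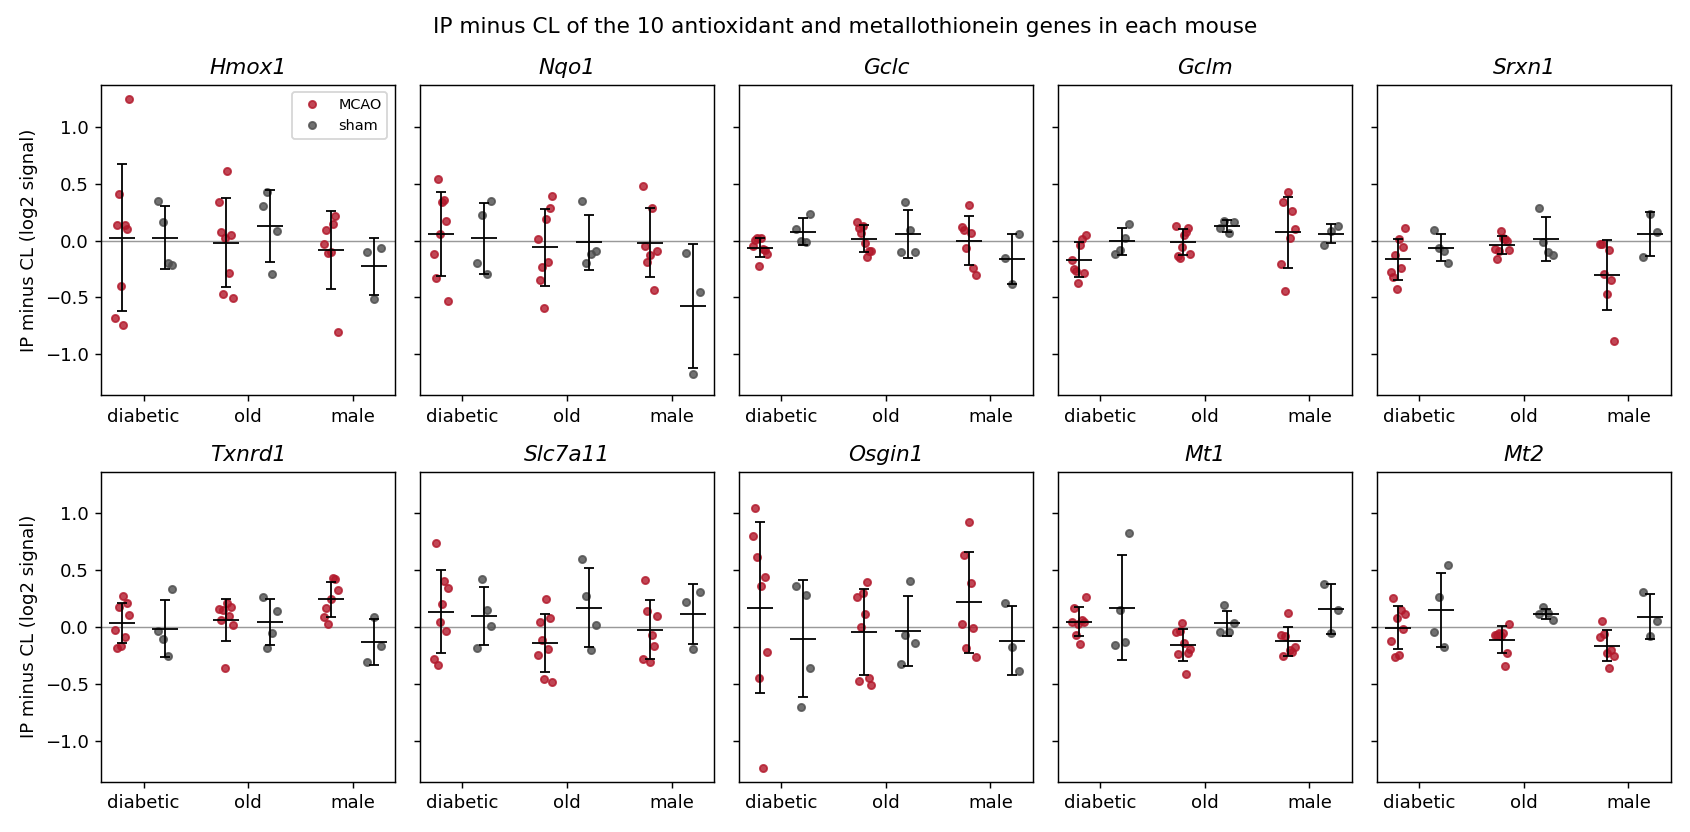
IP minus CL as log2 signal (y axis) of each mouse for the 10 genes, by group (x axis), with MCAO mice in red left of sham mice in grey, and bars for the mean and SD. MCAO and sham mice overlap for nearly every gene and group, and all 7 male MCAO mice lie below 0 for Srxn1 and above 0 for Txnrd1.

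Srxn1 and Txnrd1 belong to the thioredoxin branch. Sulfiredoxin, the product of Srxn1 (chr2:152105524-152111376, GRCm38.p6), returns overoxidized peroxiredoxins to the active form. In diabetic mice IP minus CL of Srxn1 after MCAO ran from -0.42 through a median of -0.19 to 0.11, and was -0.19, -0.10, -0.06 and 0.09 after sham surgery. In old mice it ran from -0.16 through -0.04 to 0.08 after MCAO and was -0.13, -0.10, -0.01 and 0.29 after sham surgery. In males it ran from -0.88 through -0.29 to -0.03 after MCAO and was -0.14, 0.08 and 0.24 after sham surgery. IP was thus the lower side in 18 of 23 MCAO mice, including 7 of 7 males, and in 7 of 11 sham mice, and the ranges overlapped in all groups.

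The mean over the 3 groups fell by 0.17 (SE 0.0434, 95% interval -0.26 to -0.08, adjusted p = 0.0228 by limma), a level of 0.889-fold in IP relative to CL. The sham mean was 0.00139 (SE 0.0632). The difference of MCAO and sham mice was -0.17 (SE 0.0767, 95% interval -0.33 to -0.02, adjusted p = 0.490) and did not pass. Of the groups alone, males had -0.31 (adjusted p = 0.515), diabetic mice -0.17 (adjusted p = 0.223) and old mice -0.04 (adjusted p = 0.926). In the diabetic and old mice, the 2 groups of the second set of experiments, the joint value was -0.10 (SE 0.0432, adjusted p = 0.186) and did not pass. Male MCAO mouse 8 had the lowest value, -0.88, with the highest CL level of the male arrays (8.03), and without it the joint value was -0.14 (adjusted p = 0.0461). Without old MCAO mouse 8 it was -0.17 (adjusted p = 0.0251). With both poor male mice kept, it was -0.09 (adjusted p = 0.656). Beside these values, 2 of 4 neutrophil markers (list median 0.44) and 1 of 5 endothelium markers (list median 0.14) were higher in IP in the same joint fit, and their part was not tested.

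The stretch before the start of Srxn1 (250 bases, RefSeq, build GRCm38.p6, plus strand) is shown because this was the only gene of the 10 to pass; capitals mark TGACTCA on either strand, the site of AP-1 proteins and of small Maf proteins, with first bases at -102 and -45 from the start of the transcript.
Srxn1 promoter, chr2:152105274-152105523: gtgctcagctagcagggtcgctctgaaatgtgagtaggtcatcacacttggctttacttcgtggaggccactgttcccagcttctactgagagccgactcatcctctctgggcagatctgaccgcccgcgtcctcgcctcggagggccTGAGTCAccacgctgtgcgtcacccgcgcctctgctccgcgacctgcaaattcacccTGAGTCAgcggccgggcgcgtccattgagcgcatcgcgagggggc
TGACTCA occurs in 4.46% of 32851 promoters of this length. The antioxidant response element core TGACNNNGC, also searched on both strands, was not among these letters; it occurs in 10.2% of the promoters and, of the members, in the windows of Gclm, Mt2 and 1 of 3 Txnrd1 starts. Promoters were found for 8 of the 10 genes, and Hmox1 and Gclc were not looked up elsewhere. Windows follow the listed starts. Those of Slc7a11, Osgin1 and the Txnrd1 start with the core lie inside the annotated span of the gene, and that of Gclm reaches into it. A match or its absence is a description of letters only.

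Txnrd1 (chr10:82833951-82897724, GRCm38.p6) makes the cytosolic thioredoxin reductase, which keeps thioredoxin reduced with NADPH. IP minus CL ran from -0.19 through 0.04 to 0.27 in diabetic MCAO mice and was -0.25, -0.10, -0.03 and 0.34 in diabetic sham mice. It ran from -0.36 through 0.12 to 0.22 in old MCAO mice and was -0.18, -0.05, 0.15 and 0.27 in old sham mice. Male MCAO mice lay between 0.03 and 0.43 with a median of 0.25, and male sham mice had -0.31, -0.17 and 0.09. IP was the higher side in 18 of 23 MCAO mice and in 4 of 11 sham mice. The mean over the 3 groups was 0.12 (SE 0.0422, 95% interval 0.03 to 0.20, adjusted p = 0.129), which did not pass, and it was 0.05 in the diabetic and old mice alone. Old MCAO mouse 4 had the lowest value, -0.36, and without it the joint value was 0.14 (adjusted p = 0.0563).

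**Figure D3:**
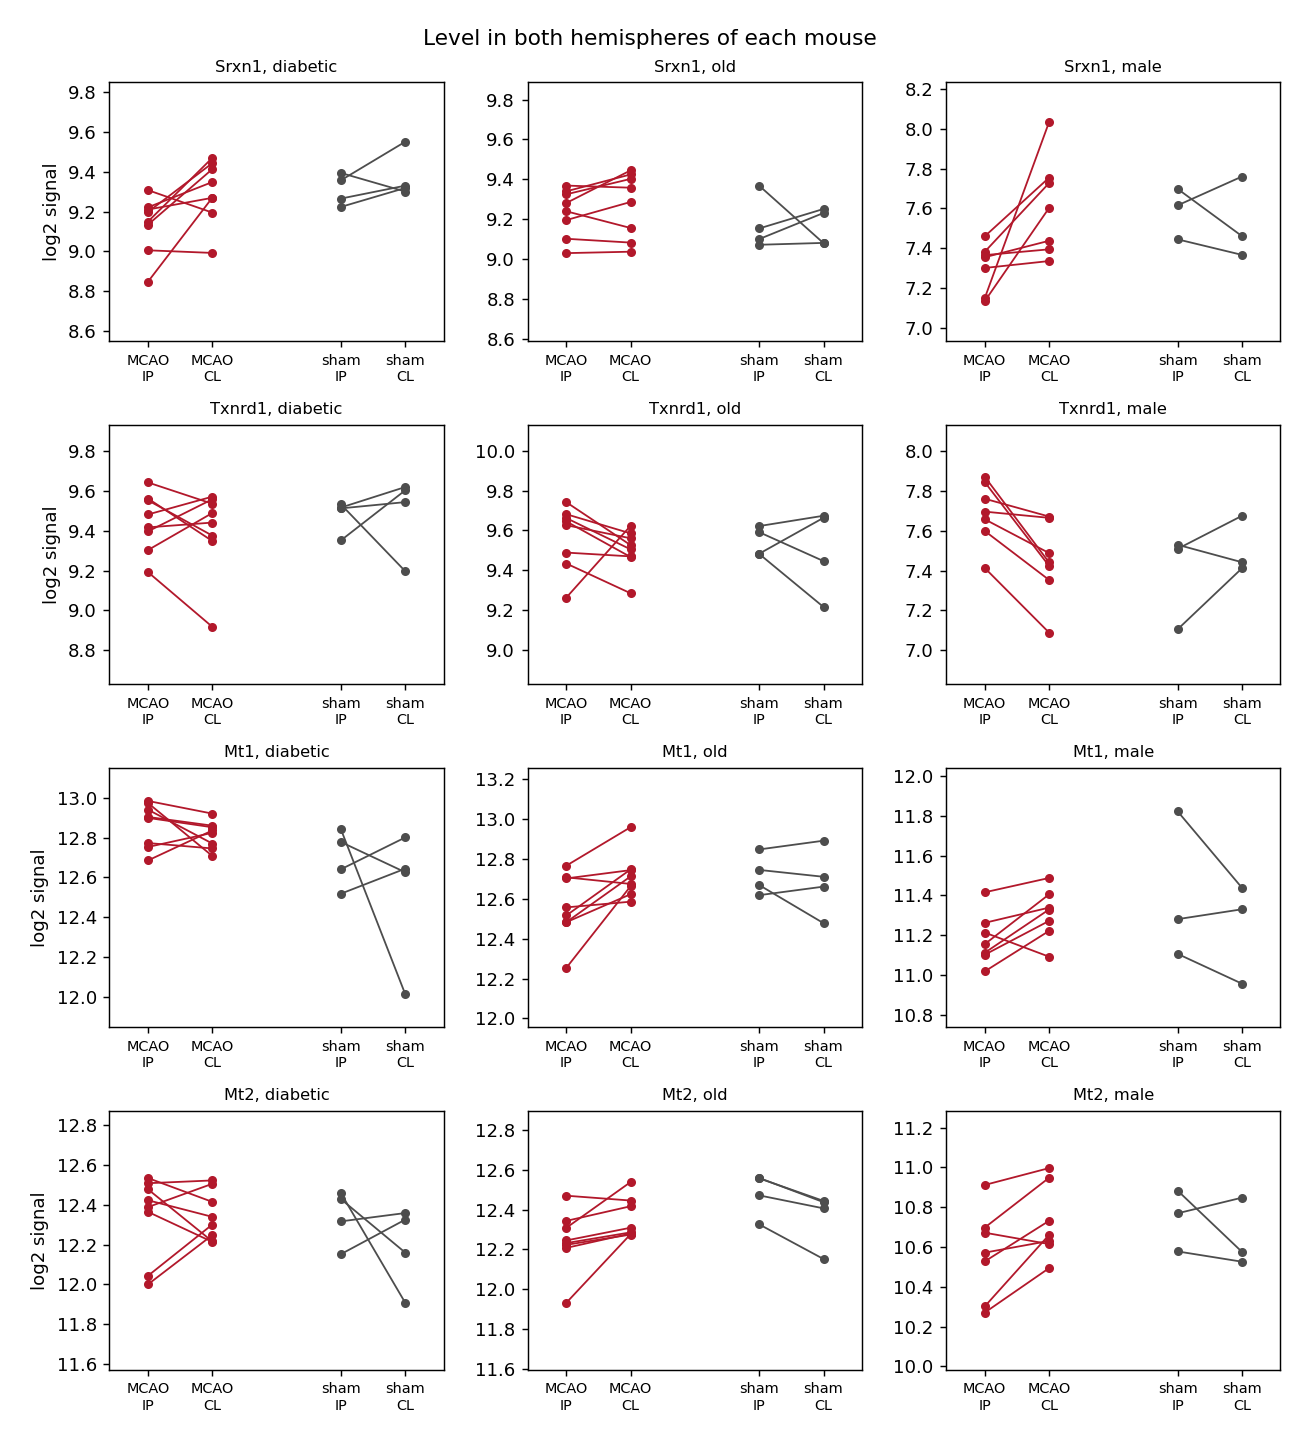
Log2 signal (y axis) in IP and CL of each mouse, joined by a line, after MCAO (red) and after sham surgery (grey), for Srxn1, Txnrd1, Mt1 and Mt2 in rows and diabetic, old and male mice in columns. Lines of Srxn1 rise toward CL in the 7 male MCAO mice, and the CL array of 1 of them stands at 8.03.

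Gclc (chr9:77754535-77794489, GRCm38.p6) and Gclm (chr3:122245487-122267215) make the catalytic and modifier subunits of glutamate-cysteine ligase, the first step of glutathione synthesis, and Slc7a11 makes the cystine transporter that feeds it. Gclm had -0.17 in diabetic MCAO mice (SE 0.0708, 95% interval -0.32 to -0.02, adjusted p = 0.198), with 6 of 8 mice lower in IP, values from -0.38 to 0.05 and sham values of -0.12, -0.08, 0.02 and 0.15. This passed the looser threshold only. It was -0.01 in old mice and 0.07 in males, and the difference of diabetic mice and males was -0.24 (adjusted p = 0.256). Gclc had the narrowest joint interval of the 10, -0.09 to 0.06 around -0.02, with 11 of 23 MCAO mice higher in IP. Slc7a11 averaged 0.14 in diabetic mice, -0.14 in old mice and -0.02 in males after MCAO, with mice from -0.48 to 0.74 (joint value -0.01, 95% interval -0.13 to 0.12). None of these 3 genes passed an adjusted p of 0.05 in any group, and their mice lay on both sides of 0 in every MCAO group.

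Hmox1 (chr8:75093618-75100593, GRCm38.p6) makes the inducible heme oxygenase, which cleaves heme to biliverdin, iron and carbon monoxide. It was above the 95th percentile of 5222 negative control probe sets of the same array on 63 of 68 arrays. The other 5 were IP arrays, those of diabetic MCAO mice 1, 4 and 5, male MCAO mouse 8 and male sham mouse 3. The differences of these mice (-0.68, -0.40, -0.74, -0.81 and -0.52) are thus those of an IP signal not above the limit of its own array. That limit varied, from 7.22 to 8.17 over the diabetic arrays. On the IP arrays of diabetic MCAO mice 1, 4 and 5 it was 7.96, 7.94 and 8.17, with Hmox1 at 7.47, 7.80 and 6.85. A diabetic sham CL array with Hmox1 at 7.54 was above its own limit. IP minus CL ran from -0.74 through 0.12 to 1.24 in diabetic MCAO mice, against -0.21, -0.19, 0.16 and 0.34 in diabetic sham mice. In old mice it ran from -0.50 through 0.04 to 0.61 after MCAO, against -0.30, 0.09, 0.31 and 0.42 after sham surgery. In males it ran from -0.81 through -0.03 to 0.22 after MCAO, against -0.52, -0.10 and -0.07 after sham surgery. The joint difference was -0.03 (SE 0.0882, 95% interval -0.21 to 0.15, adjusted p = 0.926), with 13 of 23 MCAO mice higher in IP. Without male MCAO mouse 8, the lowest at -0.81, it was 0.01 (adjusted p = 0.957). The SD over the IP arrays of diabetic MCAO mice, 3 of them not above background, was 0.67, against 0.25 over their CL arrays.

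Nqo1, which makes a quinone reductase, and Osgin1, which makes an oxidative stress-induced growth inhibitor, were above that control limit on 0 of 68 arrays. Their differences are therefore those of signals not above background. The joint values were -0.01 for Nqo1 (95% interval -0.15 to 0.14) and 0.12 for Osgin1 (95% interval -0.09 to 0.33), with mice from -0.59 to 0.55 and from -1.23 to 1.04. The other 7 genes were above the limit on 68 of 68 arrays.

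Mt1 (chr8:94178883-94180327, GRCm38.p6) and Mt2 (chr8:94172618-94173567) are neighbours on chromosome 8. Mt1 averaged 12.86 ± 0.11 in IP and 12.81 ± 0.07 in CL of diabetic MCAO mice (SD, n = 8), and 12.69 ± 0.14 in IP and 12.52 ± 0.35 in CL of diabetic sham mice (SD, n = 4). In old MCAO mice it averaged 12.56 ± 0.17 in IP and 12.71 ± 0.11 in CL (SD, n = 8), and 12.72 ± 0.10 in IP and 12.69 ± 0.17 in CL of old sham mice (SD, n = 4). Male MCAO mice had 11.18 ± 0.13 in IP and 11.31 ± 0.13 in CL (SD, n = 7), and male sham mice 11.40 ± 0.37 in IP and 11.24 ± 0.25 in CL (SD, n = 3). IP was lower than CL for Mt1 in 7 of 8 old and 6 of 7 male MCAO mice, but in 2 of 8 diabetic ones. Mt2 was lower in IP in 7 of 8 old, 6 of 7 male and 4 of 8 diabetic MCAO mice.

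Mt2 ran from -0.26 through 0.03 to 0.26 in diabetic MCAO mice, against -0.17, -0.04, 0.27 and 0.55 in diabetic sham mice. In old mice it ran from -0.34 through -0.07 to 0.02 after MCAO, against 0.07, 0.11, 0.12 and 0.17 after sham surgery. In males it ran from -0.36 through -0.20 to 0.06 after MCAO, against -0.08, 0.05 and 0.31 after sham surgery. The MCAO minus sham difference of old mice was not called (-0.23, adjusted p = 0.823). Over the 3 groups IP minus CL of Mt2 was -0.09 after MCAO (SE 0.0402, adjusted p = 0.236) and 0.12 after sham surgery (SE 0.0586), and their difference was -0.21 (95% interval -0.36 to -0.07, adjusted p = 0.314). For Mt1 the values were -0.08 after MCAO (SE 0.0443, adjusted p = 0.394) and 0.12 after sham surgery (SE 0.0645), and their difference was -0.20 (95% interval -0.36 to -0.04, adjusted p = 0.409). Diabetic sham mouse 4 had the highest values of all, 0.83 for Mt1 and 0.55 for Mt2, beside a CL level of 12.01 for Mt1, the lowest of the diabetic arrays. Without it, Mt1 after sham surgery was -0.04 in diabetic mice, against 0.17 with it, and 0.05 over the 3 groups (SE 0.0531), and MCAO minus sham over the 3 groups was -0.13 (SE 0.0635, adjusted p = 0.625). Mt2 after sham surgery was then 0.02 in diabetic mice, against 0.15 with it, and 0.08 over the 3 groups (SE 0.0564), and MCAO minus sham over the 3 groups was -0.17 (SE 0.0674, adjusted p = 0.486). Summed linear signals of the 6 astrocyte markers were also taken. After sham surgery their medians were 5317 in IP and 4760 in CL (diabetic), 6323 and 5303 (old) and 1331 and 1159 (males). After MCAO they were 4884 and 4846, 5722 and 5500, and 1305 and 1331. Ranges of IP and CL overlapped in each case, and the part of astrocytes in the metallothionein values was not tested.

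Shown next are the stretches before the listed starts of Mt1 and Mt2 (250 bases each, RefSeq, build GRCm38.p6, plus strand). Zinc-responsive elements before these genes are their classic control. Capitals mark the metal response element core, TGCACNC or TGCGCNC, on either strand.
Mt1 promoter, chr8:94178839-94179088: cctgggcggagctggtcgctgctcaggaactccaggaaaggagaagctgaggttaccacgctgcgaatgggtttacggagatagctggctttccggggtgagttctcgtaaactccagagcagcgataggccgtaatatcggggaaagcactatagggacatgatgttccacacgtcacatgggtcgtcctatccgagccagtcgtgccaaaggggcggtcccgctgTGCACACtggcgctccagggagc
Mt2 promoter, chr8:94172368-94172617: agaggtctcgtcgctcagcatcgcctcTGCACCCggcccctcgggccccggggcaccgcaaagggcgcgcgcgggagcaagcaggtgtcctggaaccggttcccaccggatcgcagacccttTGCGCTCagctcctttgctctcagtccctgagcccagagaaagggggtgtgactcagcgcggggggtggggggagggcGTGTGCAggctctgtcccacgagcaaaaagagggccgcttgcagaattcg
Either form of the core occurs in 21.4% of 32851 promoters of this length. There was 1 in the Mt1 stretch and 3 in the Mt2 stretch, and there was 1 in that of Srxn1 and 2 in that of Gclm. The Mt2 stretch also held TGACTCA and TGACNNNGC, which overlap there. The annotated span of Mt1 begins inside the stretch shown, since the table takes a later start. The site marked for Mt1 thus lies inside that span, and the counts of Mt1 and Mt2 come from unlike positions.

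Across mice the metallothioneins varied together in diabetic mice. Pearson's r of Mt1 and Mt2 (IP minus CL, MCAO) was 0.805 in 8 diabetic mice (exact permutation p = 0.0139, adjusted p = 0.0417), 0.681 in 8 old mice (exact permutation p = 0.0617, adjusted p = 0.0925) and -0.0945 in 7 males (exact permutation p = 0.836, adjusted p = 0.836), all two-sided and adjusted over 3 groups. Spearman's rho was 0.810 in diabetic mice (exact permutation p = 0.0218, adjusted p = 0.0653), 0.381 in old mice (exact permutation p = 0.360, adjusted p = 0.540) and -0.179 in males (exact permutation p = 0.713, adjusted p = 0.713). Without the 2 mice farthest from the median of Mt1, r was 0.876 in 6 diabetic mice (exact permutation p = 0.0333, adjusted p = 0.1), 0.312 in 6 old mice (exact permutation p = 0.557, adjusted p = 0.835) and 0.0138 in 5 males (exact permutation p = 0.983, adjusted p = 0.983). The diabetic relation passed after adjustment by Pearson's r over 8 mice only. The old one did not pass with or without those 2 mice. Whether r differed between groups was not tested.

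**Figure D4:**
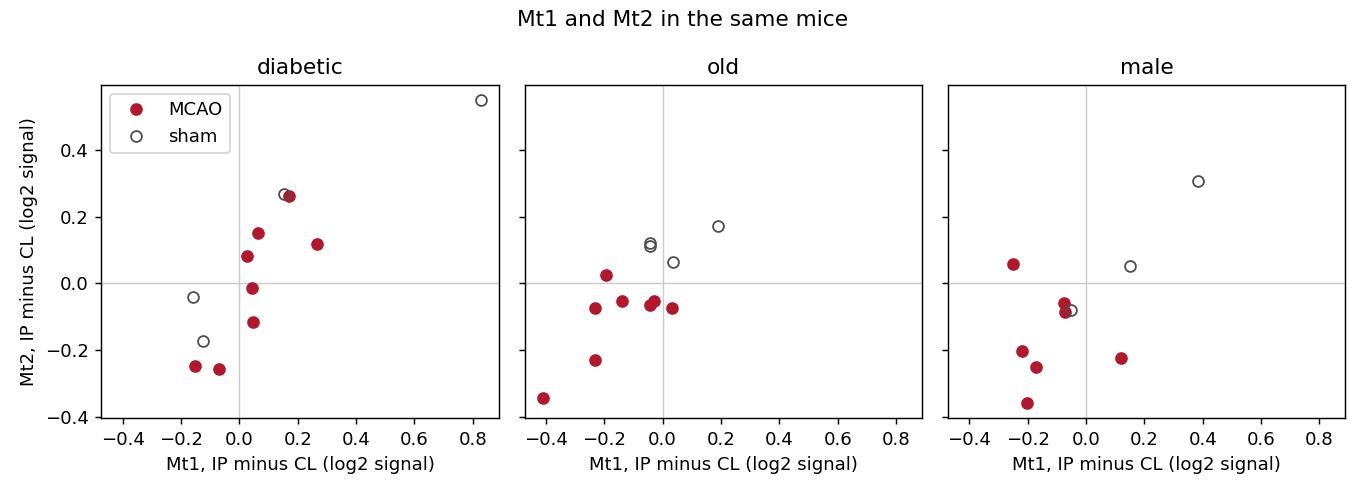
IP minus CL of Mt1 (x axis) against Mt2 (y axis) as log2 signal, with a point per mouse (filled red MCAO, open grey sham), for diabetic, old and male mice. Diabetic MCAO mice lie along a rising line (r = 0.805), and the diabetic sham mouse at 0.83 and 0.55 is the farthest point.

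As a description, the genes whose IP minus CL followed the members most closely over the 23 MCAO mice, each group centred on its mean, were found by Pearson's r. The genes share the same 2 arrays of each mouse. For Hmox1 they were Nfkbid (r = 0.805), Dhh (r = 0.718) and Slc7a14 (r = 0.715). For Mt1 they were Rreb1 (r = 0.726), Il1r1 (r = 0.684) and Lin7a (r = 0.681). For Mt2 they were Cox6a1 (r = 0.817), Cd81 (r = 0.758) and Gpx1 (r = 0.752), the last a glutathione peroxidase. They are the extremes over all other genes measured, and no test was made.

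Between groups the response of the 10 genes to MCAO did not differ past the threshold. Diabetic minus male gave 0 of 10 called, against 0.62% of all genes, old minus male 0 of 10, against 0%, and diabetic minus old 0 of 10, against 0.0461%. At an unadjusted p under 0.05 by limma the counts were 1 of 10 for diabetic minus male, 1 of 10 for old minus male and 0 of 10 for diabetic minus old. Of all 19505 genes, 2888, 720 and 2515 were under it in these comparisons. The differences lay between -0.26 (Osgin1, old minus male) and 0.28 (Slc7a11, diabetic minus old, SE 0.148, 95% interval -0.03 to 0.58, adjusted p = 0.434). Srxn1 in old mice minus males was 0.27 (SE 0.108, 95% interval 0.05 to 0.49, adjusted p = 1.00). The intervals together ran from -0.78 to 0.72.

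The wider pathway was described with a list of 84 genes, of which 79 were measured, in 8 roles. In the fit of the 3 groups 2 of 79 were higher and 3 of 79 lower in IP after MCAO, where 3.49% of all genes were called in either direction, and the list median was -0.01. Maff, a small Maf partner of Nrf2 that also pairs with other factors, had the largest value, 0.64 (SE 0.110, 95% interval 0.42 to 0.87, adjusted p = 0.000448), a 1.56-fold level, and was higher in IP in 20 of 23 MCAO mice and 6 of 11 sham mice. In diabetic MCAO mice it was 0.97 (adjusted p = 0.0272, 8 of 8 higher), in old mice 0.73 (adjusted p = 0.386, 7 of 8) and in males 0.24 (adjusted p = 0.771, 5 of 7). Without old MCAO mouse 8, the old value was 0.94 (adjusted p = 0.0147). MCAO minus sham was 0.60 in the 3 groups (adjusted p = 0.273), so that the surgery difference itself did not pass.

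Nfe2l2 (0.04), Keap1 (-0.08) and Bach1 (0.11), the repressor of the same elements, did not pass in that fit (adjusted p = 0.857 for Nfe2l2, 0.341 for Keap1 and 0.309 for Bach1). Txnip, the thioredoxin inhibitor, was higher by 0.26 (SE 0.0650, adjusted p = 0.0186), in 18 of 23 MCAO mice and 9 of 11 sham mice, though not without the replicate block (adjusted p = 0.0606) or with all male mice kept (adjusted p = 0.0805), and MCAO minus sham was 0.19 (adjusted p = 0.646). Ggt7, of the gamma-glutamyl transferase family, fell by 0.22 (adjusted p = 0.00766), the epoxide hydrolase Ephx1 fell by 0.19 (adjusted p = 0.0435) and glutaredoxin Glrx fell by 0.18 (adjusted p = 0.0497). MCAO minus sham did not pass for Ggt7 (-0.22, adjusted p = 0.404), Ephx1 (-0.14, adjusted p = 0.668) or Glrx (-0.32, adjusted p = 0.195). The calls of Ephx1 and Glrx were lost with all male mice kept (adjusted p = 0.601 for Ephx1 and 0.165 for Glrx), without the replicate block (0.235 and 0.201), with median centring (0.0522 and 0.0756) and with a trended variance (0.0573 and 0.0559), and that of Glrx also with renewed quantile normalization (0.0533). In diabetic mice alone Ggt7 fell by 0.44 (adjusted p = 0.0334) and Glrx by 0.54 (adjusted p = 0.0278), beside the marker values above, where 2.29% of all genes were called. With single mice left out, the diabetic calls passed in 7 of 12 fits for Maff, 5 of 12 for Ggt7 and 7 of 12 for Glrx. In old mice 0 of 79 passed, against 0% of all genes, and in males 0 of 79, against 0.159%. The roles of superoxide and peroxide removal (5 genes), heme and iron (8 genes), NADPH supply (4 genes) and metals (9 genes, among them Mtf1 at 0.04 and Mt3 at -0.02) had 0 called in the joint fit.

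**Figure D5:**
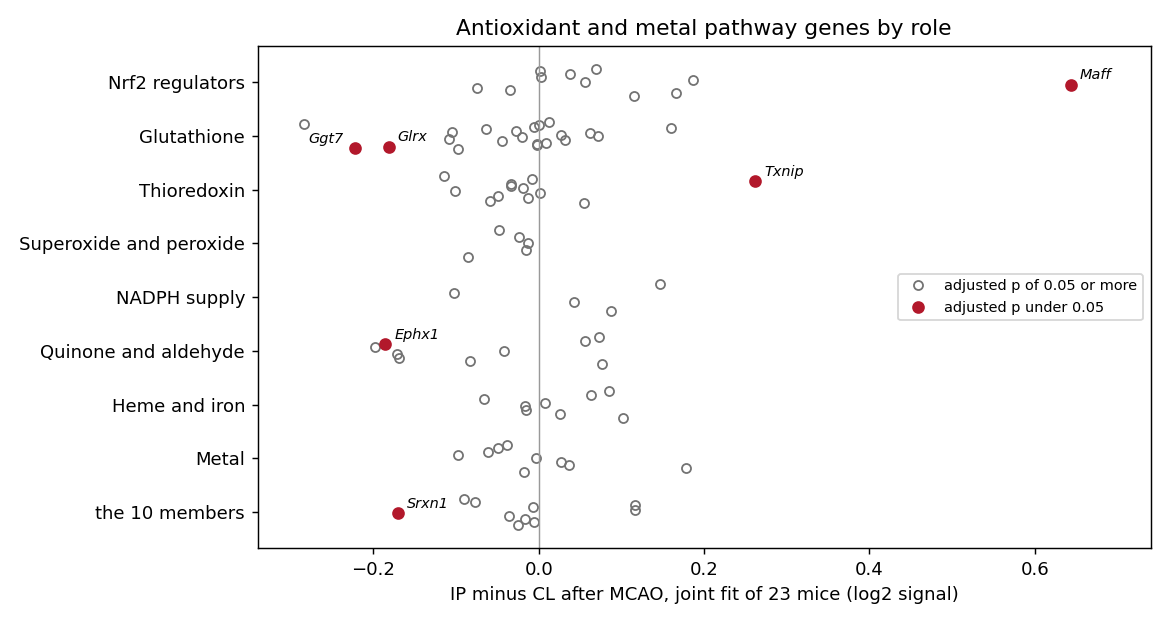
IP minus CL after MCAO in the fit of 3 groups as log2 signal (x axis) for the 79 measured pathway genes by role and for the 10 genes at the bottom (rows), with filled red points for an adjusted p under 0.05 and open points for the rest. Maff stands apart at 0.64, followed by Txnip at 0.26, and Srxn1 is the filled point among the 10 genes at -0.17.

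The arrays labelled female were described without a direction or a comparison, since both their hemisphere and their surgery labels are in doubt. IP minus CL of Fos as labelled was below 0 in 5 of 7 mice labelled MCAO, and was -3.15 and -3.53 in 2 of the 3 labelled sham, where Npas4 had -4.68 and -4.80. Over the 10 genes and these mice together the values as labelled ran from -0.84 to 1.51.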

How the data were processed

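Arrays of 48 mice (96 arrays) were deposited as 1 table. It holds log2 values, which the authors obtained by Robust Multiarray Average (background adjustment, log2, quantile normalization) separately per group; Affymetrix Expression Console appears in the submitters' notes with no version number. Of 29129 probe sets 19572 carried 1 symbol, 9557 none and 0 several, and the probe set with the highest mean stood for a gene (19505 genes). Rows were moved as stated, which raised the correlation with the male arrays over the 8800 probe sets to 0.975 for diabetic and 0.977 for old mice, against 0.169 and 0.170 as deposited. The 12 mice labelled female, of which 2 had poor pairs, were given as values only. In all 34 mice (68 arrays) were tested, and the number of arrays limits the precision. The replicates are separate mice, each with an IP and a CL array.

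IP minus CL of each mouse was fitted with limma 3.58.1 (R 4.3.3, empirical Bayes, two-sided, Benjamini-Hochberg over all 19505 genes), MCAO and sham mice of a group in one model and, for the joint fit, all 3 groups with equal weight. The mouse is the block since both arrays come from 1 animal. Own pairs deviated together with median correlations of 0.0823 to 0.176. Those with arrays of other mice were -0.113 to -0.0182. Centring on the mean of the same mice forces these below 0 when own pairs lie above it, so they are no contrast. After MCAO the own CL array was the closest to IP for 2 of 8 diabetic, 4 of 8 old and 7 of 7 male mice. After sham surgery it was so for 4 of 4, 3 of 4 and 3 of 3. The script was tested on simulated data. Exact tests were run with scipy 1.17.1, figures drawn with matplotlib 3.10.9, and tables handled by pandas 2.3.3 and numpy 2.4.6 under Python 3.11.15. The study's filter on the SD (75th percentile) was not used in the main fit, so that all 10 genes have a value. Alternatives were that filter, a filter on mean signal, median centring, renewed quantile normalization, a trended variance, an adjusted p under 0.25, the mean of probe sets, all male mice, rows as deposited, no block, 1 surgery per model and leaving out each mouse.

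The members, lists and tests were chosen with earlier results of these data known. Genes named are the 10 members, the pathway genes past an adjusted p of 0.05 in an MCAO fit, and the 3 genes most like Hmox1, Mt1 and Mt2. Nfe2l2, Keap1, Bach1, Mtf1 and Mt3, named for their roles, were added after their values were seen. Symbols not found in the table were not analysed here. Promoter windows are those of the RefSeq table.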

Additional observations from a re-analysis of the deposited data

Results flagged for a closer look

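In the 50 sets of 4 to 8 mice that were examined, 2 had a mouse far from the others for a member, against about 1 in 20 by chance. Txnrd1 had -0.36 in old MCAO mouse 4, where the other 7 mice lay between 0.02 and 0.22. Hmox1 had -0.81 in male MCAO mouse 8, where the other 6 lay between -0.11 and 0.22, and its IP signal there was not above background. The same male mouse had the lowest Srxn1 value, -0.88. What set these mice apart was not tested.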

How the results depend on the processing

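Of 1059 recomputed differences of the 10 genes after MCAO, 1053 kept their side of the threshold and 0 passed with the opposite sign, while 63 changed sign with neither value past the threshold. The number of the 10 called in the 3 groups together, 1, was 0 with all male mice kept, 0 in the diabetic and old mice only (chosen after seeing the data), 0 under the SD filter, which tested 3 of the 10, and 3 at an adjusted p of 0.25, and in diabetic mice the 0 became 2 at an adjusted p of 0.25. Without the replicate block, that is with the pairing of hemispheres ignored, the count was again 1 of the 10 and Srxn1 had -0.17 (adjusted p = 0.0413). Leaving out each mouse gave -0.19 to -0.14 for Srxn1 (adjusted p = 0.0123 to 0.0461), 0.59 to 0.71 for Maff and 0.24 to 0.29 for Txnip, while Ephx1 passed in 19 and Glrx in 4 of 34 such fits. With rows as deposited Glrx had 0.00603 (adjusted p = 0.974) and Maff 0.0947 (adjusted p = 0.654), and both lie in the rows that were moved. The correlation of Mt1 and Mt2 in diabetic mice, 0.805, was 0.876 without the 2 mice farthest from the median and no longer passed with 6 mice.

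Over all genes the joint fit called 680, against 277 with all male mice, 222 under the SD filter, 355 without the block, 2798 at 0.25 and 467 to 1017 without single mice (1017 without old MCAO mouse 8). Diabetic mice had 446 called, against 1404 with the filter on mean signal, 100 under the SD filter, 56 with 1 surgery per model, 26 with a trended variance and 103 to 671 without single mice (103 to 168 without MCAO mouse 1, 2, 4, 6 or 7, 671 without MCAO mouse 8, 252 to 289 without sham mouse 1, 2 or 3). Males had 31 called, against 20, 64, 16 and 18 to 32 with all male mice, the mean filter, the trend and single mice left out. Old mice had 0 called, against 6, 26 and 0 to 31 with the mean filter, the SD filter and single mice left out (12 without MCAO mouse 6, 31 without MCAO mouse 8). MCAO minus sham over the 3 groups called 33, and 24 to 65 without single mice, diabetic minus male 121 and 26 to 325, and diabetic minus old 9 and 4 to 62. The cause was not tested. Signals of Nqo1 and Osgin1 near background limit what can be said of them.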
